A study of Mus musculus with 6 samples.

Results

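The genes described here encode the enzymes and the cofactor with which the pancreas digests dietary lipid. They are the pancreatic triglyceride lipase Pnlip, the lipase-related proteins Pnliprp1 and Pnliprp2, colipase (Clps), the bile salt-stimulated lipase Cel (carboxyl ester lipase) and the secreted phospholipase A2 of group IB (Pla2g1b). They were chosen by name, and all 6 were found among the 10245 genes of the table. The authors sequenced RNA of the whole pancreas from 3 control mice and 3 Ptf1a cKO mice, 1 library per mouse. Control mice were Ptf1a CreERT/+ and 4 months old. Ptf1a cKO mice were Ptf1a CreERT/lox and 5 months old, so age and genotype cannot be told apart. Both groups were given tamoxifen by gavage at 0.25 mg/g on 3 consecutive days and were killed on day 14. CreERT is expressed from the Ptf1a locus and replaces the gene there, so that control mice also carry a single working copy of Ptf1a, and only cells in which the locus is active can recombine. The comparison asked what the loss of PTF1A, the factor that maintains acinar cells, did to the mRNAs of these secreted proteins.

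All 6 proteins are made by acinar cells, stored in zymogen granules and released into the duodenum. Pancreatic lipase splits triglycerides at the surface of fat droplets, where bile salts would displace it without colipase, the small protein that anchors it. PNLIPRP1 resembles lipase closely but has little known activity against triglycerides, whereas PNLIPRP2 also splits galactolipids and phospholipids. CEL acts on cholesteryl esters, retinyl esters and many other lipids once bile salts activate it. PLA2G1B is secreted as a proenzyme, is activated by trypsin and splits phospholipids at the middle position.

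The values are normalized read counts that the authors placed on a common scale. Read numbers cannot be worked out from them, so the depth of a single value is unknown and precision rests on the 3 mice of each group. Nothing in the labels ties mice to litters or days, and p-values measure the spread between these mice. Ptf1a itself had 566, 601 and 652 normalized counts in the control libraries and 19.8, 70.1 and 10.2 in the Ptf1a cKO libraries. The labelled tissue was matched by its defining genes, since the mRNAs of 34 digestive enzymes and other proteins of the acinar cell, these 6 included, made up 83.9% to 86.3% of the gene total in control and 39.5% to 66.2% in Ptf1a cKO libraries. By label, control replicate 1 and Ptf1a cKO replicate 2 were male and the other mice female. The Ptf1a cKO libraries matched their labels, with 7.87 normalized counts of Xist and 778 over 4 Y-linked genes in replicate 2. What sets that mouse apart from the other Ptf1a cKO mice can thus not be told apart from its sex. The labelled sex was not matched in 2 control libraries. Control replicate 1, labelled male, held 1726 normalized counts of Xist and 6.31 over 4 Y-linked genes, whereas control replicate 3, labelled female, held 93.6 and 220. Without both libraries a single control remained, and none of the 6 genes then passed the threshold by limma, with log2 fold changes of -2.22 for Pnlip, -2.97 for Pnliprp1, -2.16 for Pnliprp2, -0.86 for Clps, -3.03 for Cel and 1.13 for Pla2g1b. Results without either library alone are given beside each gene where a call changed.

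The sequence before the start of transcription is shown for 4 of the genes, because the changes of these 4 span the range from the largest fall to the single rise. PTF1 binds a pair of short elements, an E-box (CANNTG) and the element of its RBPJ or RBPJL subunit (TGGGAA, read as TTCCCA on the other strand). The nuclear receptor NR5A2 binds around AAGGTCA, and TATAAA is the core of the TATA box. Capitals mark every match to these 4 motifs on either strand in the 250 bases before the RefSeq start (GRCm38.p6), written 5′ to 3′ along the gene. GENCODE places the start of Pnlip (58652498) before and that of Pla2g1b (115466262) after the RefSeq start used here, and sequence before those other starts was not searched as such. The regions are chr19:58670115-58670364 (plus strand) for Pnlip, chr19:58728637-58728886 (plus strand) for Pnliprp1, chr2:28563404-28563653 (minus strand) for Cel and chr5:115465892-115466141 (plus strand) for Pla2g1b.
Pnlip: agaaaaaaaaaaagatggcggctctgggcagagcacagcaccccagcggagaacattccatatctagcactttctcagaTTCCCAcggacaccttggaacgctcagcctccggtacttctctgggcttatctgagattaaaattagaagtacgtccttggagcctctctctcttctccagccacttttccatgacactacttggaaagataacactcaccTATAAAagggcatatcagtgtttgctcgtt
Pnliprp1: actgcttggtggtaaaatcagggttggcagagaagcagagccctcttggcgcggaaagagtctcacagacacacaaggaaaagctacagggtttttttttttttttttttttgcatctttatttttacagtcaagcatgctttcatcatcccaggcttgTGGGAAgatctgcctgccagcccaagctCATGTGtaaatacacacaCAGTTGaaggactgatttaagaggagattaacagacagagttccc
Cel: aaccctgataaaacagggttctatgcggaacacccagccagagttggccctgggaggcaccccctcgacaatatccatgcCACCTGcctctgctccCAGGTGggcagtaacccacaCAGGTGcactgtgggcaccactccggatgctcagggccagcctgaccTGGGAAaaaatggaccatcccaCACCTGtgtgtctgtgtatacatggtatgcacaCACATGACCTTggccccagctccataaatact
Pla2g1b: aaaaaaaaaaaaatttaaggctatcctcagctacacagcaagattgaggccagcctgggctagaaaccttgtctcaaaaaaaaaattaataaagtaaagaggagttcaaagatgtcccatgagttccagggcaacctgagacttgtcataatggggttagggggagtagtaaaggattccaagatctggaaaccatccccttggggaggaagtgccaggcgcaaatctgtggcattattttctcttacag

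Cel held 5 matches to CANNTG, with TGGGAA from 87 to 82 bases and the nearest CANNTG from 65 to 60 bases before the start. It also held AAGGTCA, on the other strand, from 28 to 22 bases before the start, where it overlaps the last CANNTG. Pnliprp1 held TGGGAA from 91 to 86 bases and CATGTG from 63 to 58 bases before the start. Thus in both genes the pair lay at most 30 bases apart, as it did in 5.72% of 32851 RefSeq promoters of this length and in 8 of the 21 promoters found for the other digestive enzymes and secreted acinar proteins (38.1%). Pnlip held TTCCCA from 171 to 166 bases and TATAAA from 30 to 25 bases before the start, and no CANNTG. Pla2g1b held none of the 4 motifs in this window. Pnliprp2, whose window is not shown, held a single CANNTG, from 228 to 223 bases before the start. Among all promoters, CANNTG was found in 66.2%, TGGGAA in 21.6%, TATAAA in 12.4% and AAGGTCA in 4.08%. In the 21 promoters of the other digestive enzymes and secreted acinar proteins the shares were higher, at 85.7%, 66.7%, 47.6% and 14.3% in this order. These are matches of letters and not measured binding, and sequence outside the window was not searched. A promoter of Clps was not analysed here.

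Pnlip, also per kb of exon the most abundant of the 6 mRNAs in control pancreata, had 1760906, 1875486 and 1367501 normalized counts. The Ptf1a cKO libraries held 325551, 897109 and 224326. Every Ptf1a cKO value lay below every control value, but Ptf1a cKO replicate 2 stood well above the other two. The mean was 3.46-fold lower in Ptf1a cKO, which on the log2 scale was -2.04 (95% interval -3.73 to -0.34) and missed the threshold (adjusted p = 0.0637, limma, Benjamini-Hochberg over 10245 genes). Without Ptf1a cKO replicate 2 the change was -2.61 (adjusted p = 0.00213, limma). The threshold was also passed when limma was run without a mean-variance trend (adjusted p = 0.0165).

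**Figure D1:**
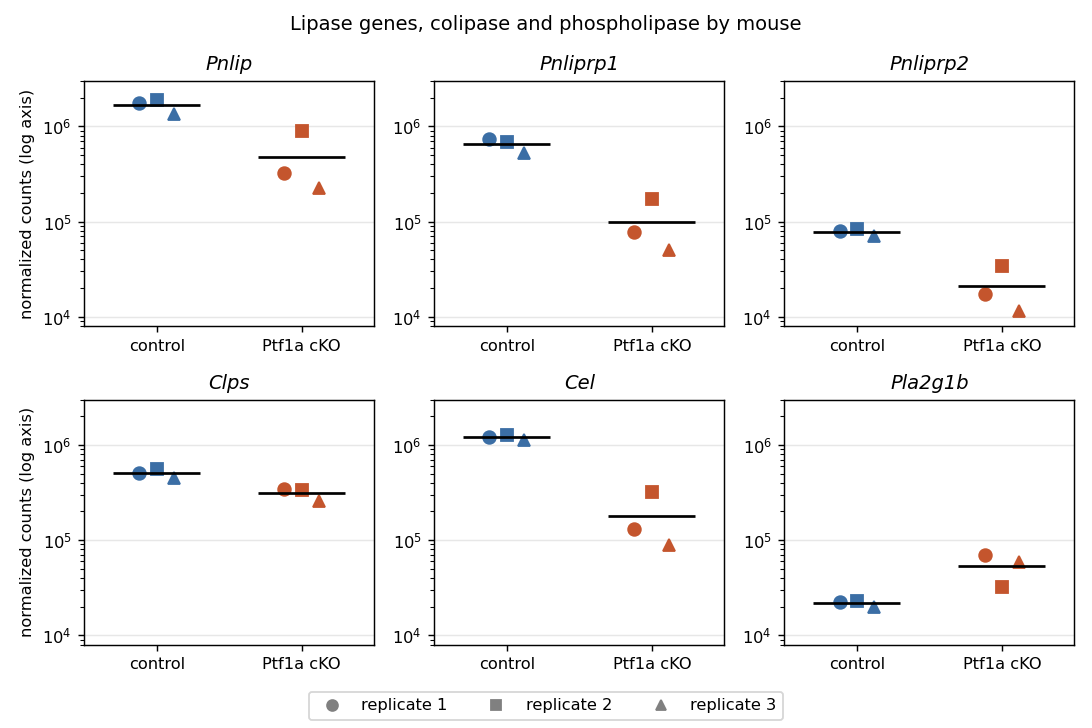
Normalized counts (log axis) of the 6 genes in each of the 3 control and 3 Ptf1a cKO mice, with marker shape for the replicate number and a bar at each group mean. In 5 genes every Ptf1a cKO mouse lay below every control mouse, and in Pla2g1b every Ptf1a cKO mouse lay above.

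The lipase-related genes lie beside Pnlip on chromosome 19. Pnliprp1 had 745858, 685721 and 529639 normalized counts in control libraries and 76996, 172774 and 50684 in Ptf1a cKO libraries. It fell 6.53-fold, with a log2 fold change of -2.88 (95% interval -4.09 to -1.67, adjusted p = 0.00371 from limma). Pnliprp2, less abundant also per kb of exon, had 79843, 84292 and 70309 normalized counts in control and 17255, 34051 and 11366 in Ptf1a cKO libraries. It fell 3.74-fold, with a log2 fold change of -2.05 (95% interval -2.90 to -1.20, adjusted p = 0.00352 from limma). In both genes the groups did not overlap and Ptf1a cKO replicate 2 kept the most mRNA. Both calls held in each of the 6 fits with a single library left out, in which the change ran from -3.37 to -2.49 for Pnliprp1 and from -2.48 to -1.68 for Pnliprp2.

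Cel showed the largest fall of the 6 genes. Its normalized counts were 1217024, 1268906 and 1121693 in control libraries and 131604, 321356 and 87943 in Ptf1a cKO libraries. The control mice were close to each other (1202541 ± 74668, SD, n = 3), and the Ptf1a cKO mice were spread more widely (180301 ± 124093, SD, n = 3), with replicate 2 again the highest. Cel fell 6.67-fold, with a log2 fold change of -2.95 (95% interval -4.35 to -1.56, adjusted p = 0.00663 from limma). Over the whole table, 25 genes had a lower log2 fold change than Cel and 30 a lower one than Pnliprp1. In the 6 fits that each lacked a library, its change ran from -3.48 to -2.55, and it passed the threshold each time.

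Clps differed least. It had 512673, 560365 and 451418 normalized counts in control libraries and 344386, 336528 and 255059 in Ptf1a cKO libraries. The groups did not overlap, and here Ptf1a cKO replicate 2 did not stand apart from replicate 1. The mean was 1.63-fold lower in Ptf1a cKO, a log2 fold change of -0.71 (95% interval -1.83 to 0.40), which did not pass the threshold (adjusted p = 0.290 from limma). When limma was run without a mean-variance trend, the same change passed (adjusted p = 0.0158). The direction rests on the scaling. When every library was rescaled to the same gene total, Clps was higher in Ptf1a cKO by 0.79 on the log2 scale, against a shift of 1.48 for the median gene.

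Pla2g1b rose. Its normalized counts were 22450, 23176 and 20022 in control libraries and 69445, 31921 and 58925 in Ptf1a cKO libraries. Each Ptf1a cKO mouse lay above all control mice, with replicate 2 the nearest to them. The mean was 2.44-fold higher in Ptf1a cKO, a log2 fold change of 1.22 (95% interval 0.52 to 1.91, adjusted p = 0.0156 from limma). The call is a narrow one. It was lost without control replicate 1 (adjusted p = 0.0618, limma), control replicate 2 (0.0578), control replicate 3 (0.0608) or Ptf1a cKO replicate 1 (0.0539), while the change stayed between 0.99 and 1.55 over the 6 fits.

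**Figure D2:**
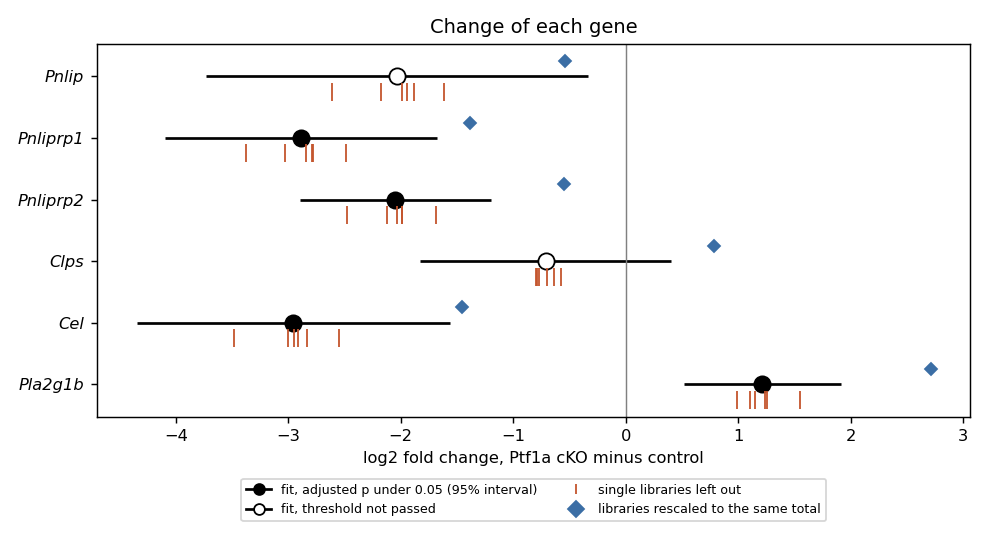
Log2 fold change (Ptf1a cKO minus control) of each gene with its 95% interval from limma (circles, filled where the adjusted p was under 0.05), the values with single libraries left out (ticks) and the value after rescaling all libraries to the same total (diamonds). Clps is the gene whose diamond crosses 0, at 0.79.

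Thus 3 of the 6 genes were lower past the threshold (Pnliprp1, Pnliprp2 and Cel), where 16.8% of all genes tested were lower, and 1 was higher (Pla2g1b), where 17.1% of all genes tested were higher. Their median log2 fold change was -2.04, against 0.036 over all genes. The groups did not overlap in any of the 6. Ptf1a cKO lay wholly below control in 5, against 24.3% of all genes, and wholly above in 1, against 26.5% of all genes (50.8% in either direction). For each gene the exact permutation test gave a two-sided p of 0.10, the smallest that 3 mice against 3 allow. In bulk RNA, fewer acinar cells and less mRNA per acinar cell cannot be told apart.

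The 6 genes spanned nearly the whole range of the digestive enzymes and secreted acinar proteins. Of the other 28 such proteins with a value, 22 were lower past the threshold (16.8% of all genes were), and their median log2 fold change was -2.17. When all 34 were ordered by their change, Cel took place 2 and Pnliprp1 place 3, behind the elastase Cela2a (-3.11). Pnliprp2 and Pnlip took places 22 and 23, just before the chymotrypsinogen Ctrb1 (-1.93, adjusted p = 0.0864 from limma). Clps took place 30, among genes that did not pass the threshold such as Prss1 (-0.51) and the amylase gene Amy1 (-0.41). Pla2g1b took the last place, after the lectin Reg2 (0.10, adjusted p = 0.948 from limma), and was the only one of the 34 that was higher past the threshold. This list was written with earlier results of these data known.

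**Figure D3:**
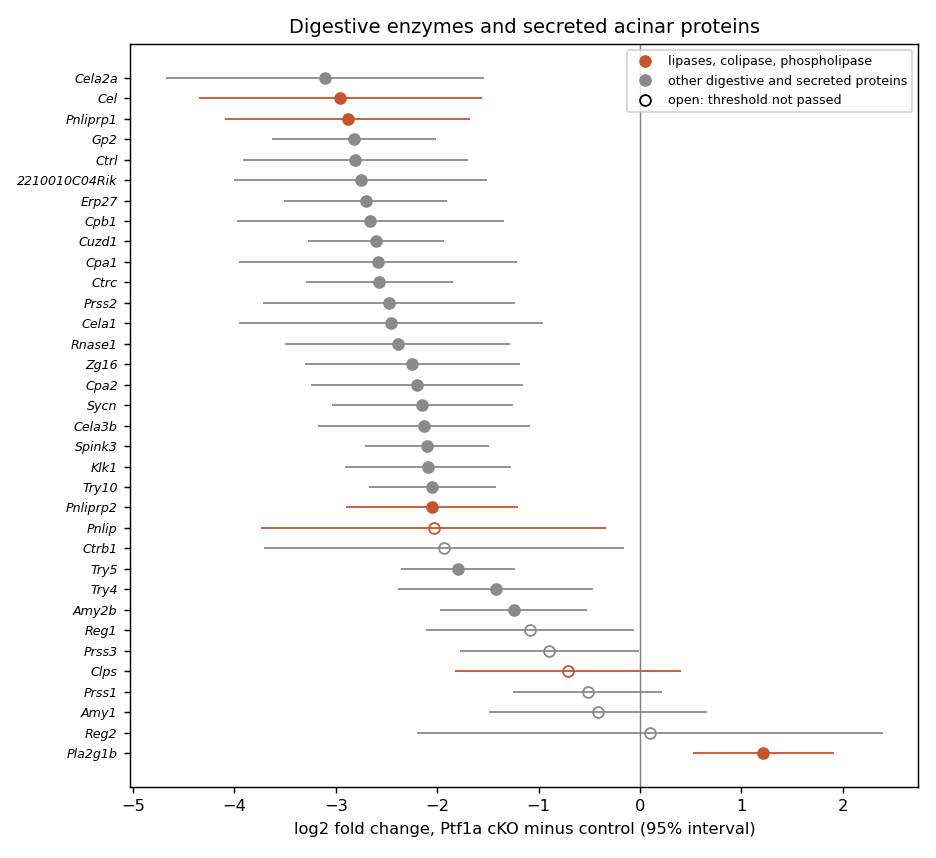
Log2 fold change (Ptf1a cKO minus control, with 95% interval from limma) of 34 digestive enzymes and secreted acinar proteins in order of their change, with the 6 genes of lipid digestion in orange and open circles for genes that did not pass the threshold. Cel and Pnliprp1 stand near the top, and Pla2g1b stands last with 1.22.

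As a share of each library's gene total, the 6 genes together took 20.5%, 21.4% and 19.8% in control libraries and 13.5%, 20.0% and 12.5% in Ptf1a cKO libraries. The share of Ptf1a cKO replicate 2 thus lay within the control range. Pnlip took 8.28% ± 0.65 (SD, n = 3) of the control total and 6.20% ± 3.29 (SD, n = 3) of the Ptf1a cKO total. Clps took a larger share in Ptf1a cKO (4.81%, 3.75% and 4.61%) than in control (2.42%, 2.66% and 2.51%), with no overlap. Pla2g1b went from 0.106%, 0.110% and 0.112% in control to 0.970%, 0.355% and 1.07% in Ptf1a cKO. By rank among all genes, Clps moved from place 11 in each control library to places 2, 6 and 2.

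Levels of different genes were compared per kilobase of exon, with exon lengths from GENCODE M21 of 1487 bases for Pnlip, 1619 for Pnliprp1, 1572 for Pnliprp2, 611 for Clps, 2063 for Cel and 713 for Pla2g1b. The order in every control library was Pnlip, Clps, Cel, Pnliprp1, Pnliprp2 and Pla2g1b. In control mice, Pnlip had 1121698 ± 179180 normalized counts per kb (SD, n = 3), Clps 831673 ± 89385 (SD, n = 3) and Cel 582909 ± 36194 (SD, n = 3). Pnliprp2 and Pla2g1b were far below, with 49712 ± 4545 and 30691 ± 2317 normalized counts per kb (SD, n = 3 each). Within each control library every neighbour in this order differed in the same direction.

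In Ptf1a cKO replicates 1 and 3 the order per kb was Clps, Pnlip, Pla2g1b, Cel, Pnliprp1 and Pnliprp2. In replicate 2 it was that of the controls, except that Pla2g1b (44770 normalized counts per kb) stood above Pnliprp2 (21661). Over the 3 Ptf1a cKO mice, Clps had 510623 ± 80950 normalized counts per kb and Pnlip 324364 ± 243954 (SD, n = 3 each), and since the order of the pair turned in replicate 2, they were not separated. Cel (87397 ± 60152, SD, n = 3) and Pla2g1b (74937 ± 27147, SD, n = 3) were not separated either. Per kb, Clps mRNA stood at 0.709, 0.727 and 0.803 of Pnlip mRNA in control libraries and at 2.57, 0.913 and 2.77 in Ptf1a cKO libraries.

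Ratios of 2 genes within a library do not depend on how libraries were scaled, and all 15 pairs were compared. In 13 pairs the ratios of the 3 Ptf1a cKO mice lay wholly to one side of those of the control mice. The exact permutation test then gave a two-sided p of 0.10, or 0.115 when adjusted over the 15 pairs, and this design cannot pass 0.05. The pairs share genes, so the 15 comparisons are not independent of each other. How often pairs of other genes lie apart was not worked out. Among all single genes tested, the groups did not overlap in 50.8%. The ratio of Pla2g1b to Cel moved most, from 0.0184, 0.0183 and 0.0178 in control to 0.528, 0.0993 and 0.670 in Ptf1a cKO. Its log2 difference was 4.17, with 3.65 when Ptf1a cKO replicate 3 was left out and 5.03 when replicate 2 was. The ratio of Clps to Pnlip went from 0.291, 0.299 and 0.330 to 1.06, 0.375 and 1.14. Here too Ptf1a cKO replicate 2 was the nearest to the controls.

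Among the lipase genes, some ratios overlapped between the groups and others lay apart. The ratio of Pnliprp2 to Pnlip was 0.0453, 0.0449 and 0.0514 in control and 0.0530, 0.0380 and 0.0507 in Ptf1a cKO libraries, so that the groups overlapped (log2 difference -0.013, from -0.10 to 0.14 with single libraries left out, exact permutation p = 0.90). Likewise the ratio of Cel to Pnliprp1 was 1.63, 1.85 and 2.12 in control and 1.71, 1.86 and 1.74 in Ptf1a cKO (log2 difference -0.071, from -0.16 to 0.024, exact permutation p = 0.70). With 3 mice in a group these values do not show that the paired genes changed alike. Across these pairs the ratios parted. Cel to Pnlip was 0.691, 0.677 and 0.820 in control and 0.404, 0.358 and 0.392 in Ptf1a cKO. Pnliprp1 to Pnlip was 0.424, 0.366 and 0.387 in control and 0.237, 0.193 and 0.226 in Ptf1a cKO. Both were lowest in Ptf1a cKO replicate 2, which here lay farthest from the controls. For the ratios of Clps and Pla2g1b to Pnlip it lay nearest to them.

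**Figure D4:**
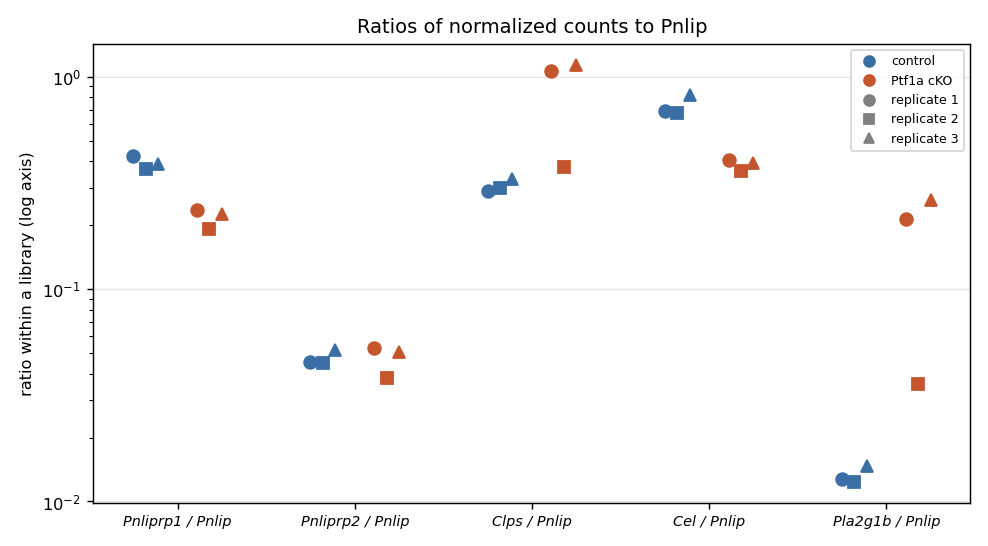
Ratio of the normalized counts of 5 genes to those of Pnlip within each library (log axis), for control (blue) and Ptf1a cKO mice (orange), with marker shape for the replicate number. The groups overlap for Pnliprp2, lie apart with little spread for Pnliprp1 and Cel, and lie apart with Ptf1a cKO replicate 2 near the controls for Clps and Pla2g1b.

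The Ptf1a cKO mice differed from each other in how much Ptf1a mRNA remained, at 3.27% (replicate 1), 11.6% (replicate 2) and 1.69% (replicate 3) of the control mean. Pnlip, Pnliprp1, Pnliprp2 and Cel followed this order. So did the sum of the other digestive enzymes and secreted acinar proteins, so the order is not particular to the lipase genes. That sum was 1496065 normalized counts in replicate 3, 2650440 in replicate 1 and 4154159 in replicate 2. Not every gene in it had this order, since Ctrc was highest in replicate 1. Relative to its control mean, Pnlip stood at 13.4% in replicate 3, 19.5% in replicate 1 and 53.8% in replicate 2. Cel stood at 7.31%, 10.9% and 26.7% in these mice. Clps did not follow the order at its upper end, with 50.2% in replicate 3, 67.8% in replicate 1 and 66.2% in replicate 2. Pla2g1b stood at 269%, 317% and 146%, so that the mouse with the most remaining Ptf1a had the least Pla2g1b. Replicate 2 was also the only male of these mice, so for it remaining Ptf1a and sex cannot be told apart. These are 3 mice, and no test of this order was made.

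**Figure D5:**
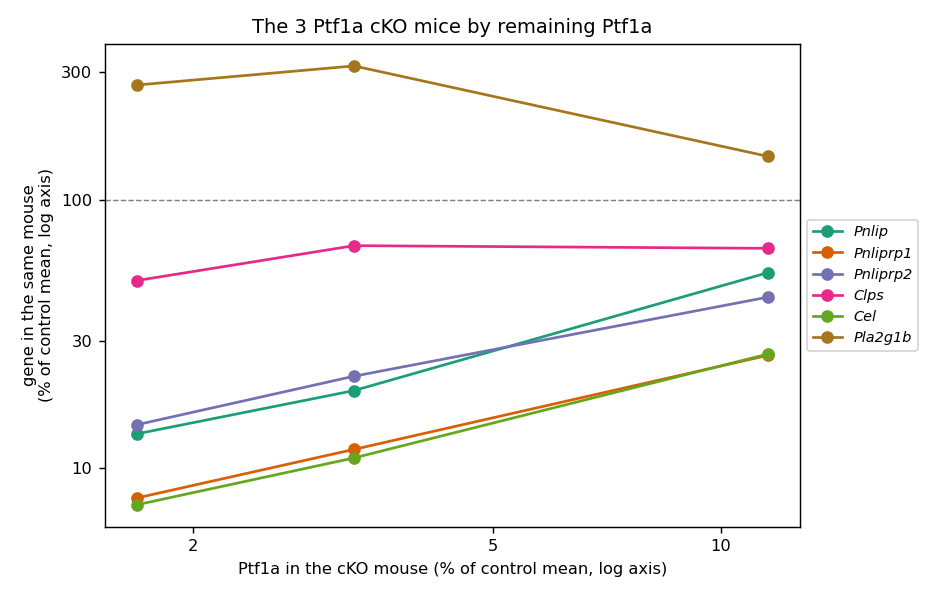
Level of each of the 6 genes in the 3 Ptf1a cKO mice as a percentage of its control mean, plotted against Ptf1a in the same mouse as a percentage of its control mean (both axes log, lines join the mice). Pnlip, Pnliprp1, Pnliprp2 and Cel rise from left to right, whereas Pla2g1b is lowest, at 146%, in the mouse with 11.6% of Ptf1a.

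Markers of other cells moved with genotype in the same libraries. Each count below stands beside the 17.1% of all genes that were higher past the threshold and the 16.8% that were lower. Of 8 gastric chief cell markers 6 had a value and all 6 were higher past the threshold, with summed levels between 3516 and 6283 normalized counts in control and 193145 in replicate 2, 444123 in replicate 3 and 544603 in replicate 1 of Ptf1a cKO. Pla2g1b had the order of this sum among the Ptf1a cKO mice. So did Pga5, Gkn3 and Mia, whereas Pgc, Gif and Chia each had another order. The lowest control value of any of these chief cell markers was 48.1 normalized counts (Mia). Ductal markers (4 of 7 with a value higher past the threshold) summed to between 3780 and 4663 in control and between 25292 and 109770 in Ptf1a cKO, most of it Spp1, while Krt19 did not pass (log2 fold change -0.012). Of the hepatocyte markers only Ttr and Alb had a value and both were higher, with sums between 1147 and 1957 in control and between 13198 and 93004 in Ptf1a cKO. Nearly all of each sum was Ttr, and Alb reached at most 233 normalized counts (Ptf1a cKO replicate 1). Leukocyte markers (5 of 7 higher, sums from 331 to 566 against 870 to 2067) and fibroblast and stellate markers (7 of 8 higher, 2875 to 3302 against 5535 to 10133) were raised as well. Of the adipocyte markers 1 of 7 was higher, a share near that of all genes (Cfd, sums from 1781 to 2082 against 2210 to 3411). None of the 7 endocrine or 5 endothelial markers passed the threshold in limma. At an unadjusted p under 0.05, 0 endocrine markers and 1 endothelial marker (Emcn, higher) were found. Endocrine sums overlapped (11369 to 42640 in control, 5817 to 33247 in Ptf1a cKO), as did endothelial sums (606 to 769 and 585 to 720.04). The single enterocyte marker with a value, Vil1, did not pass (sums from 7.05 to 10.4 against 8.90 to 56.0). Car2, Cd14 and Cfd, each called higher, reached 27.6 normalized counts in Ptf1a cKO libraries alone. No gene in the table peaked below that level, so these genes could not have been found lower. The part of these other cell types in the changes of the 6 genes was not tested.

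The scaling of libraries moved the 6 genes together. When library totals were made equal, the log2 fold changes were -0.54 for Pnlip, -1.39 for Pnliprp1, -0.55 for Pnliprp2 and -1.46 for Cel, and Pla2g1b rose by 2.71. All of these but that of Pla2g1b lay below the shift of 1.48 of the median gene. When libraries were instead rescaled to the same sum of the other digestive enzymes and secreted acinar proteins, Cel (-0.60) and Pnliprp1 (-0.53) were lower than that sum, whereas Pnlip (0.31), Pnliprp2 (0.30), Clps (1.64) and Pla2g1b (3.57) were higher. Under a median-of-ratios scaling and an equal 75th percentile, all 6 directions and calls stayed as they were, with Pnlip at -2.06 and -1.99.

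Lipid-splitting enzymes made outside the zymogen granule were listed for comparison. Of 16 other secreted lipases and lipase helpers 6 had a value. Past the threshold 1 was lower and 1 higher, near the shares of all genes (16.8% lower and 17.1% higher). Lmf2 was lower (292 ± 30.2 in control and 181 ± 51.6 in Ptf1a cKO, SD, n = 3 each, adjusted p = 0.0171, limma). Lmf1, of the same list, did not pass (log2 fold change -0.14, adjusted p = 0.399 from limma). Lipo1, at a low level, was higher (1.04, adjusted p = 0.0392 from limma). It reached 27.6 normalized counts, the lowest peak of any gene in the table, in Ptf1a cKO libraries alone. Lipoprotein lipase (Lpl), which acts on circulating triglycerides and is also made by fat cells, had 1770, 1590 and 1570 normalized counts in control and 2339, 1659 and 2008 in Ptf1a cKO libraries. The groups overlapped (adjusted p = 0.181, limma). The sum of the 6 was between 2098 and 2381 normalized counts in control libraries, a small amount beside the 3560582 to 4497947 of the genes of lipid digestion.

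Among 18 intracellular lipases and their regulators with a value, of 22 listed, 8 were lower (16.8% of all genes were) and 2 were higher past the threshold (17.1% of all genes were). The largest fall was that of Dagla, the diacylglycerol lipase that makes an endocannabinoid. It had 1053, 927 and 919 normalized counts in control and 113, 269 and 125 in Ptf1a cKO libraries, or -2.60 on the log2 scale (adjusted p = 2.82e-04, limma). Its order among the Ptf1a cKO mice was not that of the lipase genes, although replicate 2 was again the highest. Nceh1, a neutral hydrolase of cholesterol esters, fell 4.13-fold (from 343 ± 30.9 to 82.9 ± 16.8, SD, n = 3 each, adjusted p = 6.41e-05 from limma). Mgll, the monoglyceride lipase, fell 2.24-fold (adjusted p = 0.00104, limma). Adipose triglyceride lipase (Pnpla2) and hormone-sensitive lipase (Lipe), which release stored fat, did not pass the threshold (log2 fold changes 0.15 and 0.46). Ces1d (0.87) and Pnpla6 (0.72) were higher. These directions stand relative to the median gene, whose shift of 1.48 under equal totals exceeds the size of 6 of the 8 falls.

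Of 24 other phospholipases A2 and related genes 10 had a value, and Pla2g1b exceeded their sum in every library, even in controls (20022 to 23176 against 1050 to 1085 normalized counts). Of the 10, Pafah2 and Pafah1b3, which inactivate platelet-activating factor, were higher past the threshold, where 17.1% of all genes were. Pafah2 had 40.7, 48.8 and 47.4 normalized counts in control and 130, 123 and 139 in Ptf1a cKO libraries (log2 fold change 1.45, adjusted p = 1.6e-04 from limma). None was lower past the threshold by limma, and 1 was lower at an unadjusted p under 0.05 (Pla2g12a, -0.32).

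In a list of 11 acinar transcription factors, 4 were lower past the threshold (Ptf1a, Rbpjl, Bhlha15 and Nr5a2), where 16.8% of all genes were. There was 1 that was higher (Tcf12, 0.74), where 17.1% of all genes were. Rbpjl, the acinar RBPJ-like subunit of PTF1, had 8430, 8194 and 7792 normalized counts in control and 1161, 3868 and 1029 in Ptf1a cKO libraries. Bhlha15, a factor of secretory cell architecture, had 5830, 5154 and 6036 in control and 986, 2348 and 814 in Ptf1a cKO. Both ranked the Ptf1a cKO mice as Pnlip and Cel did. Nr5a2 did not rank the mice in this way (239, 194 and 222 in Ptf1a cKO, against 450, 444 and 469 in control).

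The genes nearest in pattern were sought by the root mean square difference of log2 values, each taken minus its control mean, over the 6 libraries. For Pnlip the nearest was Pnliprp2 (0.16 on the log2 scale), and for Pnliprp2 it was Nupr1 (0.039), followed for both by the elastase Cela3b. The amino acid transporter Slc38a3 was nearest to Pnliprp1 (0.090), followed by Cel (0.13). Cel was nearest to the water channel Aqp12 (0.12), then to the zinc transporter Slc39a5 and Serpini2. Clps kept other company, with Bet1 (0.037), Faf1 (0.050) and Tor2a (0.051). Pla2g1b was nearest to Akr1b10, Sgms2 and Btbd3, with distances of 0.16, 0.16 and 0.17. These distances describe 6 libraries, which share their scaling.

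Genes beside the 6 were looked up by position in GENCODE M21 (GRCm38) and were added after values had been seen. Only genes with a value in the table were considered, so other annotated genes may lie nearer. Pnlip (chromosome 19, 58652498 to 58681788), Pnliprp1 (58728887 to 58744169) and Pnliprp2 (58759719 to 58777534) lie in a row on the plus strand. The nearest such gene before Pnlip is 1810007D17Rik, which was lower (456 ± 231 in control and 55.2 ± 60.7 in Ptf1a cKO, SD, n = 3 each, adjusted p = 0.0162 from limma). Between Pnlip and Pnliprp1 lies 1810018F18Rik, which did not pass (1593 ± 201 and 791 ± 910, SD, n = 3 each, adjusted p = 0.0775 from limma). Beyond the cluster, Pdzd8 lies 519.6 kb from Pnliprp2 and changed by -0.65. Cel lies on the minus strand of chromosome 2 (28555795 to 28563403), only 2.7 kb from Ralgds (0.20 on the log2 scale, adjusted p = 0.381, limma) and 2.9 kb from Gtf3c5 (-0.84, adjusted p = 0.00716, limma). Clps lies on the minus strand of chromosome 17 (28558149 to 28560766), and its nearest neighbours with a value are Fkbp5, which did not pass (0.28), and Srpk1, which was lower (-0.92). Pla2g1b lies on the plus strand of chromosome 5 (115466262 to 115474722), 3.3 kb from Sirt4 (0.57, adjusted p = 0.0558 from limma). None of the 50-base windows of the 6 annotated transcripts occurred in a transcript of another gene, although the genome outside annotated transcripts was not searched.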

How the data were processed

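Libraries from the whole pancreas of 3 control and 3 Ptf1a cKO mice were sequenced by the authors as 50-base reads. Per the labels, the submitters' processing notes name TopHat2 2.0.4, Bowtie 0.12.7.0, SAMtools 0.1.18.0, HTSeq 0.6.0 and the build mm9. The authors deposited a table of normalized read counts, a signal that is never negative and not whole. The formula of this normalization is not given in the sources used here. At most 2.18% of a library's values fell on whole steps (tolerance 0.01), so read numbers could not be worked out and no count model was run. The 3 entries that name no gene were left out. They made up 75.7% to 82.6% of a library, most of it alignments that were not unique. A further 17 genes carry a date for a symbol.

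Values were divided by 13.6, which brings the mean library total to 1000000, and log2(value + 0.25) was used. The pseudocount equals 3.41 normalized counts. Genes with a mean under 0.25 were to be removed, and 0 were. No gene in the table peaked below 27.6 normalized counts, so genes low in every library were already absent. A gene below that level in all control libraries could therefore be found higher but not lower. Groups were compared with limma 3.58.1 in R 4.3.3 (mean-variance trend, two-sided, Benjamini-Hochberg over 10245 genes, threshold 0.05). A planned limma fit of ratios was not used, because subtracting a single gene gives all genes a shared error, and ratios were compared by exact permutation alone. Motifs and positions were handled with Python 3.11.15. The fit was also run on simulated data. There genes varied independently and both groups had the spread of the control mice. The Ptf1a cKO mice were spread more widely, so that run does not check the fit for their spread.

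The members and lists were chosen with earlier results of these data known. Named were the 6 genes, Ptf1a, up to 8 genes of a list, the smallest adjusted p first or the highest level for statements on levels, and the 3 genes nearest in pattern to each member. Genes named outside this rule were chosen after their values were seen. The alternatives were other pseudocounts, filters, scalings, spreads and thresholds, sex as labelled, the replicate block, and libraries left out.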

Additional observations from a re-analysis of the deposited data

How the results depend on the processing

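The changes of Pnliprp1 and Cel kept their direction under every alternative run, and their calls in all but the fit without both control mice whose sex label was not matched, an alternative chosen after seeing the data. That fit had 1 control mouse, assumed to vary like the Ptf1a cKO mice, and gave -2.97 for Pnliprp1, -2.16 for Pnliprp2, -3.03 for Cel and 1.13 for Pla2g1b, none past the threshold by limma, so that 0 of the 6 genes were lower and 0 higher, with 367 genes lower and 429 higher in all. Pnlip, at -2.04, passed the threshold with a minimum mean of 5, without the trend, with a robust spread and with sex as labelled, and at -2.22 with equal totals outside the digestive enzymes (1039 genes higher). Without the trend Clps passed too, at -0.71, which made 5 genes lower. Equal totals gave 0.79 for Clps, with 2 of the 6 genes, 9587 of all genes higher and 129 lower. An equal sum of the other digestive enzymes gave 0.31 for Pnlip, 1.64 for Clps and 3.57 for Pla2g1b, the 3 of the 6 genes then called higher. It gave 0.30 for Pnliprp2, which was not called (adjusted p = 0.260, limma). Of all genes 9953 were higher and 16 lower. At an adjusted p under 0.01 Pla2g1b, at 1.22, was no longer called, leaving 0 of the 6 genes higher, with 962 genes lower and 832 higher. With single libraries left out, Pnlip ran from -2.61 to -1.61 and Pla2g1b from 0.99 to 1.55, and 0 to 1 of the 6 genes were higher. Same-numbered mice deviated from their group means with correlations of 0.039, 0.13 and 0.14 over genes. For mice of different numbers these ran from -0.20 to 0.083. Such values do not settle whether replicate numbers pair the mice. With the replicate number as a block 1711 genes were lower and 1814 higher, Pnlip had an adjusted p of 0.0601 (limma), and no call among the 6 genes changed. Depth is unknown, and 3 mice a group limit every interval.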
